A study of Rattus norvegicus with 4 samples.

Results

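The genes described here were 42 genes of the actin cytoskeleton and of focal adhesions, the contacts that tie actin filaments to the extracellular matrix, out of 23360 gene symbols measured in INS-1 cells. They were chosen by name as actins, filament crosslinkers, nonmuscle myosin II chains, tropomyosins, adhesion adaptors, filament turnover factors, subunits of the ARP2/3 complex, membrane linkers and small GTPases with their kinases, and all 42 were listed. INS-1 832/3 is a clonal rat insulinoma line that carries the human insulin gene, so that each value describes 1 line and no primary islet. The 2D group was seeded as a standard monolayer without hydrogel, and the 3D group was bioprinted as single cells in GelXA LAMININK 411, a gelatin-based hydrogel that contains laminin-411. Both groups were kept in one medium, RPMI-1640 with fetal bovine serum, Geneticin, HEPES, sodium pyruvate and mercaptoethanol, and gave RNA on day 5 at passage 3, with 2 biological replicates each. The comparison asks how the encapsulated, cluster-forming cells differed from cells spread on plastic.

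Actin filaments are assembled from monomers delivered by profilin, branched by the ARP2/3 complex and taken apart by cofilin. Myosin II pulls on filaments that tropomyosins coat, talin and vinculin link them to integrins at the matrix, and ezrin, radixin and moesin link them to the plasma membrane, with small GTPases setting where each process runs. In beta cells the actin layer under the membrane is known as a barrier that insulin granules pass on their way to exocytosis.

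Abundance was read as TPM, transcripts per 1000000, which is scaled for transcript length and sums to that total in each sample, so that levels of different genes can be set side by side. Between 19355 and 19959 of 31201 transcripts were above 0 per sample. The study states a read count per sample, but TPM keeps no counts per gene, so that no counting error can be given. All 9 beta cell markers examined were above 1 TPM and summed to between 147455 and 170505 TPM over the 4 samples. Markers of fibroblasts summed to between 1.89 and 1.91 TPM in 2D and between 2.26 and 2.35 TPM in 3D. Nearly all of this was Pdgfra, with Dcn, Lum and Pdgfrb at 0. Smooth muscle markers summed to at most 0.302 TPM, and striated muscle markers to at most 0.0266 TPM. The markers Col1a2, Pecam1 and Ttn were not among the gene symbols measured. Endothelial markers summed to between 1.08 and 1.15 TPM in 2D and between 1.40 and 1.68 TPM in 3D, nearly all Kdr, with Cdh5 at 0. Leukocyte markers summed to between 21.0 and 23.7 TPM in 2D and between 32.0 and 36.3 TPM in 3D, nearly all Lcp1, with Ptprc at 0. TPM were summed per gene, scaled between samples and tested with limma on log2(scaled TPM + 1) over the 11960 genes whose mean reached 1 TPM. The added 1 makes fold changes of weakly expressed genes smaller than their ratios of TPM. A gene was called higher or lower at a Benjamini-Hochberg adjusted p below 0.05. In bulk RNA, fewer cells expressing a gene and less RNA of it per cell cannot be told apart.

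Of the 42 genes, 15 had a mean of at least 100 TPM over the 4 samples, 19 lay from 10 to under 100 TPM, 4 from 1 to under 10 TPM and 4 under 1 TPM. Actb, the beta-actin gene, was the most abundant at 1204 TPM, followed by Cfl1 (cofilin 1) at 923 TPM, Myl6 (the essential light chain of myosin II) at 445 TPM, Arpc3 at 431 TPM and Pfn1 (profilin 1) at 397 TPM. The 4 genes under 1 TPM, Actg1, Myl9, Tpm2 and Tagln, were not tested. Myl9, Tpm2 and Tagln are known from smooth muscle, and the low level of smooth muscle markers stands above. The 42 genes together took 0.669% and 0.662% of all TPM in 2D and 0.630% and 0.636% in 3D. The share was lower in both 3D cultures, at 0.633% ± 0.00444 against 0.666% ± 0.00489 (SD, n = 2 each), with a two-sided exact permutation p of 0.333, which is the smallest that 2 against 2 allows. Without the 2 cytoplasmic actin genes the difference was -0.04148 percentage points rather than -0.03261.

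**Figure D1:**
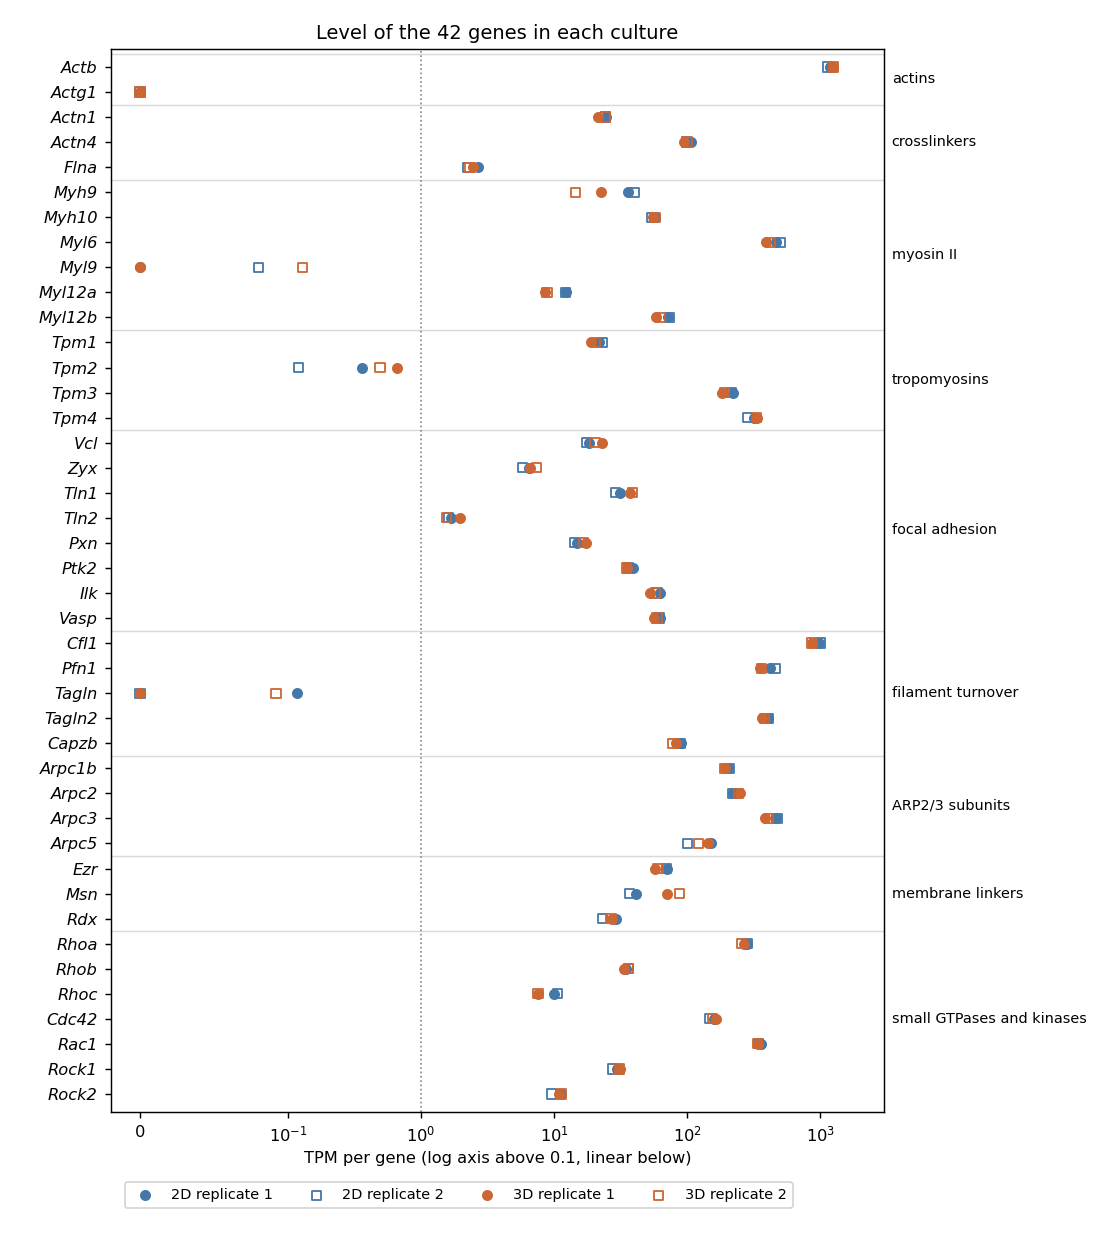
Level of each of the 42 genes in each culture, as TPM on a logarithmic axis that turns linear below 0.1, with 2D cultures in blue and 3D cultures in orange and genes ordered by role. Filled circles are replicate 1 and open squares replicate 2, the dotted line is the limit of 1 TPM for testing, and the 4 symbols of most genes lie on or next to each other, while the groups stand apart for Msn (38.8 TPM in 2D and 78.5 TPM in 3D on average) and Myh9 (38.1 and 18.4 TPM).

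The share of these genes that was called lay near that of all genes, and few of the calls had a large fold change. With 2 cultures per group, a gene that was not called was not shown to be unchanged. Of the 38 genes tested, 12 were called, 2 higher (Msn and Tln1) and 10 lower (Myh9, Myl6, Myl12a, Myl12b, Tpm3, Cfl1, Pfn1, Arpc3, Ezr and Rhoc) in 3D by limma. That was 31.6% of the set, where 38.0% of all 11960 genes were called. Calls of higher genes made up 5.26% of the set against 18.5% of all genes, and calls of lower genes 26.3% against 19.5%. A call with a log2 fold change of at least 0.3 in size was made for 5 genes, or 13.2%, against 29.9% of all genes. The median log2 fold change of the 38 genes was -0.13 against -0.0031 over all genes, and 24 of 38 genes, or 63.2%, lay below 0 against 50.5% of all genes. In deposited TPM, the groups did not overlap for 29 of the 38 genes, beside 74.2% of all genes tested.

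How many genes were called depended on which culture was left out. Without 3D replicate 1, limma called 0 of the 38 genes and 37 of all 11960, with 9 of the 38 and 3796 of all genes at an unadjusted p below 0.05. Without 3D replicate 2 it called 1 of the 38 higher and 0 lower and 633 of all genes, with 13 of the 38 and 4233 of all genes at an unadjusted p below 0.05. Without 2D replicate 2 it called 2 higher and 5 lower and 3019 of all genes, and without 2D replicate 1 it called 2 higher and 13 lower and 4456 of all genes. Each of these fits had 1 culture in an arm, which was assumed to vary like the other group. All 12 called genes kept their direction in each of the 11 other settings tried.

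**Figure D2:**
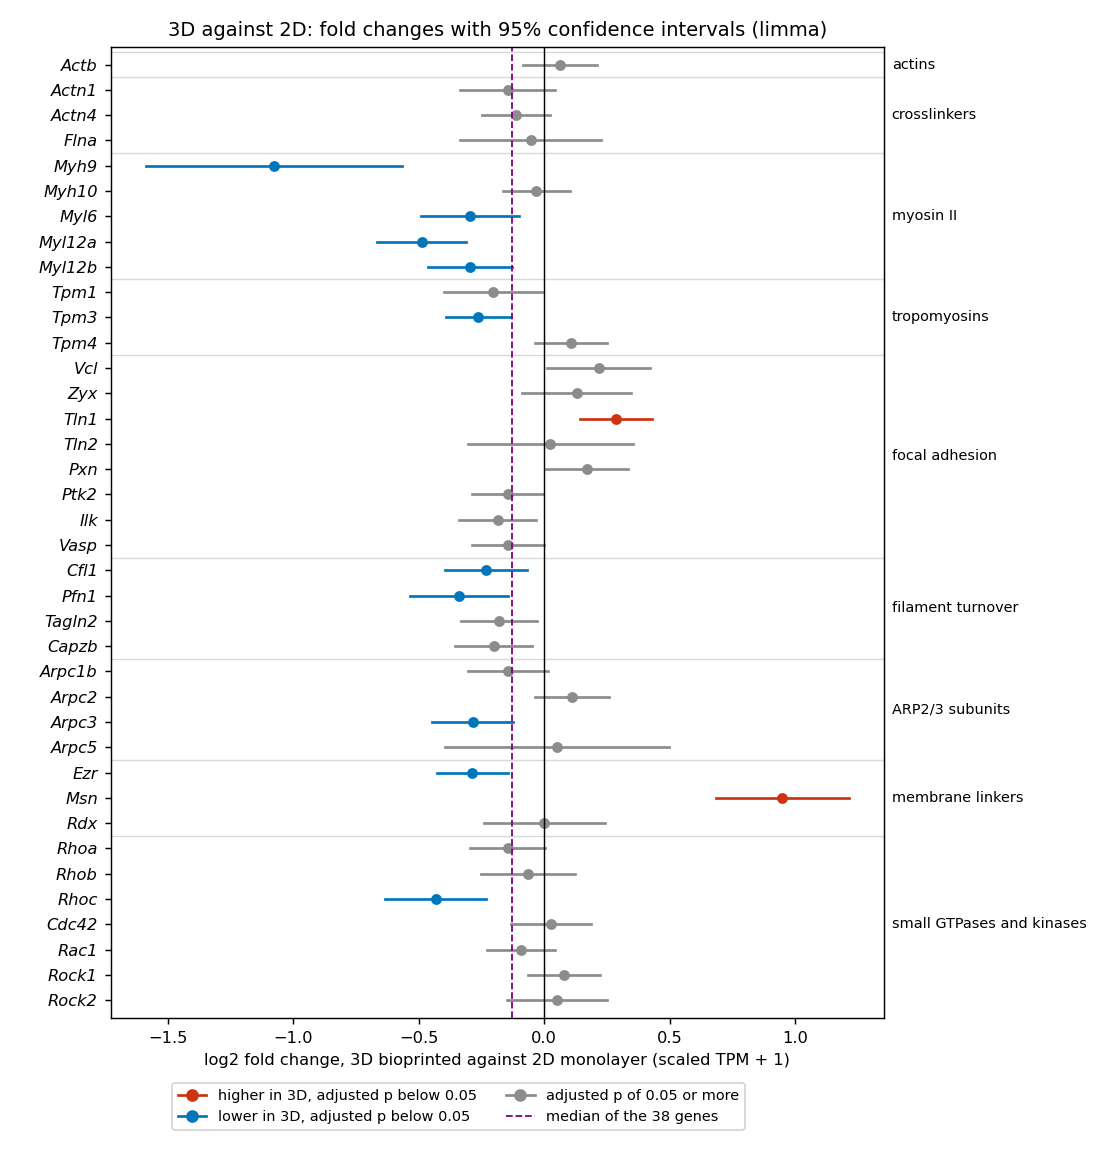
Log2 fold change of each of the 38 tested genes, 3D bioprinted against 2D monolayer, on log2(scaled TPM + 1), with 95% confidence intervals from limma as bars. Red genes were higher and blue genes lower in 3D at an adjusted p below 0.05, grey genes were not called, and the dashed line is the median of the 38 genes at -0.13; Msn at 0.95 and Myh9 at -1.08 lie farthest out.

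**Figure D3:**
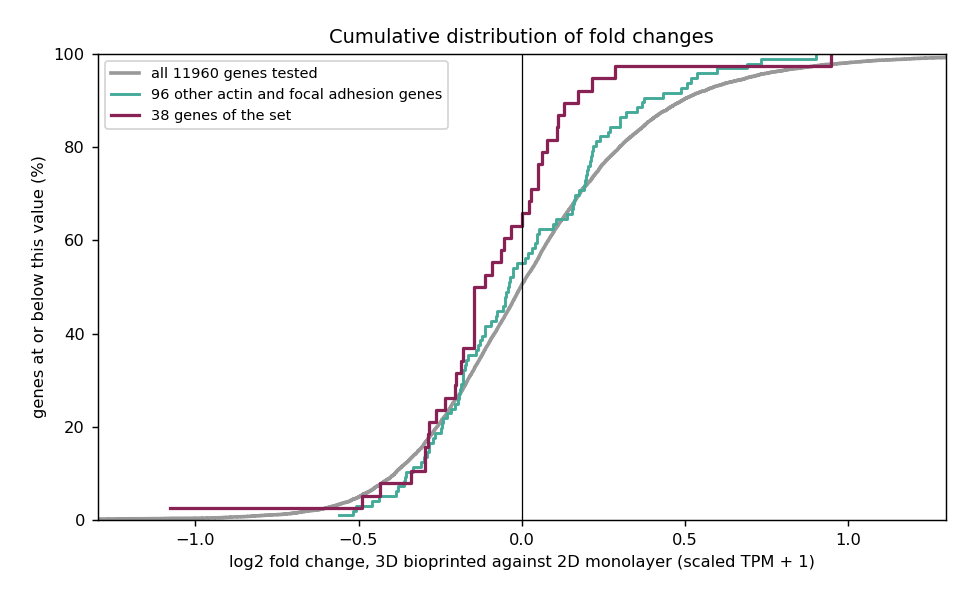
Cumulative share of genes (in percent) at or below each log2 fold change, 3D against 2D, for all 11960 genes tested (grey), the 38 genes of the set (purple) and 96 other actin and focal adhesion genes (green). At 0 the curve of the set stands at 63.2% and that of all genes at 50.5%, and 1 tested gene of the set, Myh9, lies below -0.5.

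Moesin and nonmuscle myosin heavy chain IIA, the genes with the largest change in each direction, are shown with the stretch around a RefSeq start. It runs from 250 bases before to 50 after the start in the GRCr8 rat assembly (the upstream one of 2 for Myh9). Also shown are 300 bases of Actg1, whose stretch alone, among the genes with a stretch available, held an exact CArG box. The CArG box is bound by serum response factor, a regulator known for actin cytoskeleton genes, and reads CC, then 6 bases that are each A or T, then GG. Capitals mark GGGCGG, the core of the GC box, in Msn and Myh9, with overlapping matches run together, and the CArG box alone in Actg1, 90 bases before its start, and all are printed 5′ to 3′ on the strand of the gene.
Msn, chrX:65005296-65005595, plus strand: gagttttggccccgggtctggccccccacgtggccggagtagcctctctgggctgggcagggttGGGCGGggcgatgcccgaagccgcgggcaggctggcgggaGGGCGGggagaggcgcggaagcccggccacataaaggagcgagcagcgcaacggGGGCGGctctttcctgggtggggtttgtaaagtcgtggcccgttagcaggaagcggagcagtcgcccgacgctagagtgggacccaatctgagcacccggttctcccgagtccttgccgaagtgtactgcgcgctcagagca
Myh9, chr7:111304914-111305213, minus strand: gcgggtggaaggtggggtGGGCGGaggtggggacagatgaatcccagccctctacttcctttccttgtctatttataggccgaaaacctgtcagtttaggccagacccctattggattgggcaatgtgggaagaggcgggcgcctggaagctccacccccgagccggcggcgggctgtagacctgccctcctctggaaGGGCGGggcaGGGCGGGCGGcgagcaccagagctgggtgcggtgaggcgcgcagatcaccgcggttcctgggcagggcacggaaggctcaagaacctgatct
Actg1, chr10:106120902-106121201, minus strand: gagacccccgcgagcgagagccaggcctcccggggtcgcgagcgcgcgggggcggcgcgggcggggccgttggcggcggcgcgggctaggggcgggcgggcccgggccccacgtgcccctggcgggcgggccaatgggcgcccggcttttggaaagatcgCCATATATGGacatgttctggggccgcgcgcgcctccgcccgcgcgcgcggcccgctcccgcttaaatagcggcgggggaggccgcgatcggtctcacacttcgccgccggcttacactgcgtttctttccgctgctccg
Such stretches were found for 36 of the 42 genes, with 41 starts in all. None was available for Actb, Actn4, Myl9, Ptk2, Rac1 and Tagln, so that the counts below say nothing of these genes. An exact CArG box, searched on both strands, was in 1 of the 41, or 2.44%, against 1.64% of all 33469 starts, and with 1 mismatch allowed in its middle 6 bases it was in 7, or 17.1%, against 9.42%. GGGCGG on either strand was in 33 of the 41, or 80.5%, against 33.1% of all starts, and the median GC content was 68.3% in the 41 and 51.7% in all. CATTCC, the core of the motif of TEAD factors, was in 8, or 19.5%, against 14.2%. These matches describe letters within the window and no binding was measured.

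Membrane linkers held the largest rise. Msn, which encodes moesin, was at 40.9 and 36.7 TPM in the 2D cultures and at 69.8 and 87.2 TPM in the 3D cultures. Both 3D values lay above both 2D values, and the mean went from 38.8 ± 3.00 to 78.5 ± 12.3 TPM (SD, n = 2 each), 2.02-fold. The log2 fold change was 0.95 (SE, standard error, 0.11; adjusted p = 0.00502 by limma). It ranged from 0.80 to 1.10 with each culture left out in turn, and the adjusted p was 0.0518 without 3D replicate 1. Of 4 listed Msn transcripts, ENSRNOT00000076178.1 carried 96.7% of the gene in 2D and 99.1% in 3D. Of the endothelial and leukocyte markers above, Lcp1 was called higher in 3D, as given below. Kdr lay near the limit of 1 TPM, at 0.965 and 1.00 TPM in 2D and at 1.27 and 1.48 TPM in 3D. Cdh5 and Ptprc were at 0 in all 4 samples.

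Its relatives did not rise with it. Ezr, the ezrin gene, was at 69.8 and 69.3 TPM in 2D and at 57.1 and 60.2 TPM in 3D. Both 3D values were lower, with a log2 fold change of -0.29 (SE 0.06, adjusted p = 0.0159 by limma), and both of its tested transcripts were called lower. Rdx, the radixin gene, was at 29.3 and 23.1 TPM in 2D and at 27.1 and 26.7 TPM in 3D. The groups overlapped, at a log2 fold change of 0.00 (95% interval -0.24 to 0.24, adjusted p = 0.996 by limma). Of the summed TPM of the 3 genes, moesin took 29.2% and 28.4% in 2D and 45.3% and 50.1% in 3D, while ezrin went from 49.9% and 53.7% to 37.1% and 34.6%. Ezrin was thus the leading member in both monolayers and moesin in both bioprinted cultures. Radixin took 20.9% and 17.9% in 2D and 17.6% and 15.3% in 3D. Each shift had an exact permutation p of 0.333, the smallest possible here.

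Of the 5 myosin II genes tested, 4 were called, all lower in 3D, beside 38.0% of all genes called and 19.5% called lower. Myh9, the heavy chain of nonmuscle myosin IIA, was at 35.9 and 40.2 TPM in 2D and at 22.4 and 14.5 TPM in 3D. Both 3D cultures lay below both monolayers, and they also differed from each other more than the monolayers did. The mean went from 38.1 ± 3.08 to 18.4 ± 5.56 TPM (SD, n = 2 each), 2.06-fold lower. The log2 fold change was -1.08 (SE 0.20, adjusted p = 0.0141 by limma), and it ran from -1.38 without 3D replicate 1 to -0.77 without 3D replicate 2. The adjusted p was above 0.05 without 3D replicate 1 (0.0518), without 3D replicate 2 (0.0541) and without 2D replicate 2 (0.0733).

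Myh10, the heavy chain of nonmuscle myosin IIB, was at 57.1 and 54.2 TPM in 2D and at 54.7 and 57.4 TPM in 3D. The groups overlapped, and the log2 fold change was -0.03 (95% interval -0.17 to 0.11, adjusted p = 0.662 by limma), with the sign turned to 0.0111 without scaling between samples. Of the summed TPM of Myh9 and Myh10, Myh9 therefore took 38.6% and 42.6% in 2D and 29.0% and 20.2% in 3D (exact permutation p = 0.333). Myh14, the remaining nonmuscle heavy chain and a gene outside the 42, was at 23.3 and 23.9 TPM in 2D and at 18.8 and 20.1 TPM in 3D and was called lower (-0.31, SE 0.07, adjusted p = 0.0212). Counted with it, as was added after the data were seen, Myh9 took 30.8% and 34.0% of the 3 heavy chains in 2D and 23.3% and 15.8% in 3D, and Myh10 was the leading chain in each culture.

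Among the light chains, Myl12a, one of the regulatory chains whose phosphorylation switches the motor on, was at 12.2 TPM in both 2D cultures and at 8.55 and 8.81 TPM in 3D. Its log2 fold change was -0.49 (SE 0.07, adjusted p = 0.00763 by limma). Myl12b, its close paralog, was at 71.3 and 73.4 TPM in 2D and at 58.3 and 63.0 TPM in 3D, with a log2 fold change of -0.30 (SE 0.07, adjusted p = 0.0225). Both paralogs were lower in both 3D cultures, and since they are near-identical in coding sequence the division of reads between them is uncertain. Myl12b took 85.4% and 85.7% of the regulatory chains in 2D and 87.2% and 87.6% in 3D (exact permutation p = 0.333). Myl9, the third regulatory chain, was listed at 0 and 0.0799 TPM in 2D and at 0 and 0.129 TPM in 3D. Myl6 was at 467 and 500.4 TPM in 2D and at 392 and 420.3 TPM in 3D, with a log2 fold change of -0.30 (adjusted p = 0.0333 by limma), and passed in 6 of 11 other settings (0.0545 without the trend, 0.0511 without the filter). Summed over the heavy and light chains of the set, myosin II took 0.0644% and 0.0681% of all TPM in 2D and 0.0536% and 0.0564% in 3D (exact permutation p = 0.333).

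**Figure D4:**
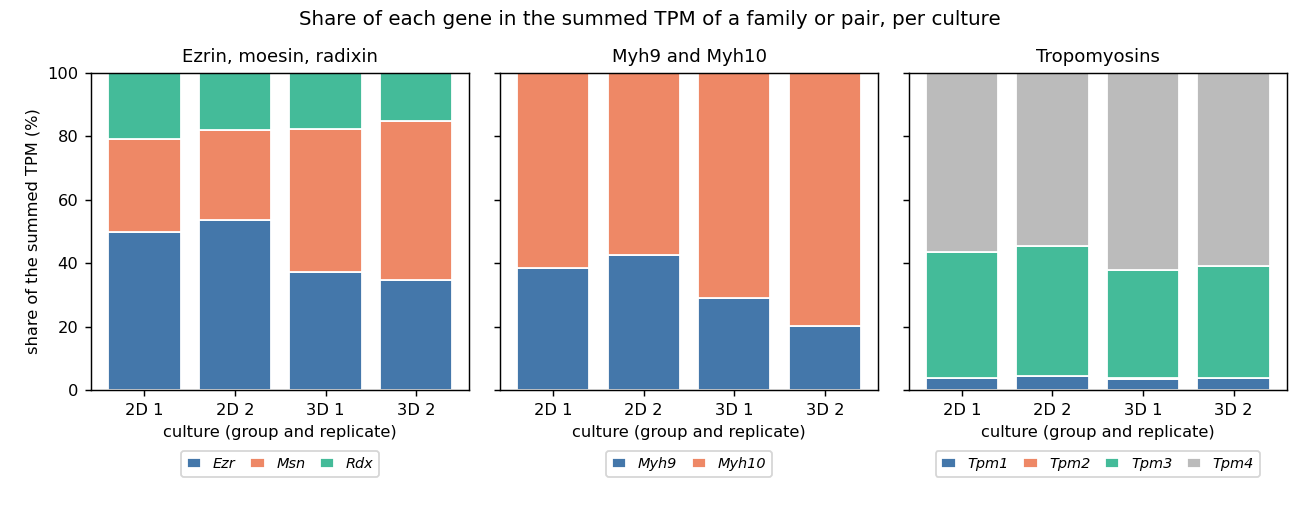
Share of each gene in the summed TPM (in percent, bars from 0 to 100) in each culture, for ezrin, moesin and radixin, for the pair Myh9 and Myh10 without Myh14, and for the tropomyosins. Moesin widens from 29.2% and 28.4% in the 2D cultures to 45.3% and 50.1% in the 3D cultures, Myh9 narrows from 38.6% and 42.6% to 29.0% and 20.2%, and Tpm2 is too small to be seen.

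Of the actins, Actb was at 1183 and 1136 TPM in 2D and at 1249.9 and 1247 TPM in 3D. Both 3D values were the higher ones, but the log2 fold change of 0.06 (95% interval -0.08 to 0.21, adjusted p = 0.426 by limma) was not called. Actg1, the gamma-actin gene that nearly all cells are known to use, was listed at 0 in all 4 samples through its 1 transcript. Actb and Actg1 have near-identical coding sequences, so that how reads were divided between them is uncertain.

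Filament turnover factors lay below 0 in all 4 genes tested, and 2 were called lower, beside 50.5% of all genes below 0 and 19.5% called lower. Cfl1, which severs old filaments, was at 972 and 995 TPM in 2D and at 861 and 863 TPM in 3D. Its log2 fold change was -0.23 (SE 0.07, adjusted p = 0.0396 by limma), and it passed in 5 of 11 other settings, with an adjusted p of 0.0584 without the intensity trend and 0.0509 without the filter on low values. Pfn1, which loads actin monomers for assembly, was at 419 and 456 TPM in 2D and at 351 and 361 TPM in 3D. Both 3D values were lower, with a log2 fold change of -0.34 (SE 0.08, adjusted p = 0.0233 by limma). For neither gene did the groups overlap. Tagln2, an actin-bundling transgelin (log2 fold change -0.18, adjusted p = 0.0625), and Capzb, a subunit of the capping protein (-0.20, adjusted p = 0.0505), did not pass the threshold. Capzb passed without the filter (0.047) and Tagln2 without 2D replicate 1 (0.0451). Tagln was listed at 0.117 and 0 TPM in 2D and at 0 and 0.0919 TPM in 3D.

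Of the tropomyosins, which coat filaments and set which proteins can bind them, Tpm3 was at 221 and 214 TPM in 2D and at 183 and 189 TPM in 3D and was called lower (log2 fold change -0.26, SE 0.05, adjusted p = 0.0153 by limma). Tpm4 was at 315 and 285 TPM in 2D and at 336 and 329 TPM in 3D, and was not called (0.11, adjusted p = 0.186). Tpm1, at 21.6 and 22.9 TPM in 2D and 19.0 and 20.5 TPM in 3D, did not pass either (-0.20, adjusted p = 0.0897, or 0.0461 without 2D replicate 1). Tpm2 was at 0.358 and 0.121 TPM in 2D and at 0.658 and 0.491 TPM in 3D, under the limit for testing. Tpm4 was the leading tropomyosin in each culture, and its share of the family was 56.5% and 54.6% in 2D and 62.3% and 61.0% in 3D, while that of Tpm3 was 39.6% and 41.0% in 2D and 34.0% and 35.1% in 3D (exact permutation p = 0.333 for each). The summed share of all TPM taken by tropomyosins was 0.0539% in both groups on average.

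Focal adhesion genes went both ways, with 5 of 8 above 0 and 1 called, where 50.5% of all genes lay below 0 and 38.0% were called. Tln1, the talin that activates integrins and joins them to actin, was at 31.0 and 28.8 TPM in 2D and at 36.8 and 38.7 TPM in 3D. Both 3D values were higher, and its log2 fold change was 0.29 (SE 0.06, adjusted p = 0.0162 by limma). Genes of other core components had positive values that were not called, namely Vcl (vinculin, 0.22, adjusted p = 0.0883), Pxn (paxillin, 0.17, adjusted p = 0.0877), Zyx (zyxin, 0.13, adjusted p = 0.278) and Tln2 (0.02, adjusted p = 0.896). The log2 fold change was negative for Ilk, the integrin-linked kinase (-0.19, adjusted p = 0.0617), for Ptk2, the focal adhesion kinase (-0.15, adjusted p = 0.0909), and for Vasp, which elongates filaments (-0.15, adjusted p = 0.0952). The crosslinkers were not called, with log2 fold changes of -0.15 for Actn1 (adjusted p = 0.174), -0.11 for Actn4 (adjusted p = 0.152) and -0.05 for Flna (adjusted p = 0.722), although Actn4 (alpha-actinin 4) at 100.1 TPM was far above Flna (filamin A) at 2.42 TPM. Within pairs, Tln1 took between 94.7% and 96.2% of both talins over the 4 cultures, and Actn4 took 81.1% and 80.2% of both alpha-actinins in 2D and 81.6% and 80.6% in 3D.

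Of the small GTPases and their kinases, Rhoc was the 1 of 7 genes called, beside 38.0% of all genes called. It was at 10.0 and 10.5 TPM in 2D and at 7.61 and 7.56 TPM in 3D, lower in both 3D cultures, with a log2 fold change of -0.43 (SE 0.08, adjusted p = 0.0135 by limma). Rhoa, which drives stress fibre contraction, was at 281 and 280.1 TPM in 2D and at 266 and 256 TPM in 3D, and its log2 fold change of -0.15 was not called (95% interval -0.30 to 0.00, adjusted p = 0.104). Rhob was at 34.5 and 36.3 TPM in 2D and at 33.4 and 36.3 TPM in 3D, and the groups overlapped (-0.06, adjusted p = 0.519). Rac1 and Cdc42, known from lamellipodia and filopodia, had log2 fold changes of -0.09 (adjusted p = 0.221) and 0.03 (adjusted p = 0.751). Rock1 and Rock2, kinases that raise myosin activity, had values of 0.08 (adjusted p = 0.319) and 0.05 (adjusted p = 0.630). Rock1 took 72.8% and 74.2% of this pair in 2D and 74.2% and 73.4% in 3D.

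Of the 4 ARP2/3 subunits, 1 was called lower and none higher at the gene level, beside 19.5% and 18.5% of all genes. Arpc3 was at 462 and 471 TPM in 2D and at 381 and 409 TPM in 3D (log2 fold change -0.28, SE 0.06, adjusted p = 0.0226 by limma). Arpc1b (-0.14, adjusted p = 0.123), Arpc2 (0.11, adjusted p = 0.184) and Arpc5 (0.05, adjusted p = 0.838) were not called. Without scaling between samples Arpc2 passed, at a log2 fold change of 0.1542 and an adjusted p of 0.0464, and Arpc1b passed without 2D replicate 1 (0.0441). Among the other subunits, Arpc4 (-0.27, adjusted p = 0.0424) and Arpc5l (-0.24, adjusted p = 0.0301) were called lower, while Arpc1a (-0.17, adjusted p = 0.124), Actr3 (-0.17, adjusted p = 0.0604) and Actr2 (0.16, adjusted p = 0.161) were not called.

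The transcripts of a gene did not always move together. The 42 genes had 94 transcripts, of which 64 reached a mean of 1 TPM, and 17 of these, or 26.6%, were called against 23.1% of all 15020 transcripts tested. Of the 17, 6 were higher and 11 lower in 3D, that is 9.38% and 17.2% of the 64 against 11.4% and 11.7% of all transcripts. Arpc2 supplied 3 of the 6 higher ones. ENSRNOT00000077285.1 was listed at 0 in both monolayers and stood at 12.2 and 7.03 TPM in 3D, through which alone it reached the limit for testing. ENSRNOT00000078316.1 was at 3.36 and 3.42 TPM in 2D and at 6.64 and 6.49 TPM in 3D (log2 fold change 0.75, SE 0.10, adjusted p = 0.0187 by limma). ENSRNOT00000083412.1 was at 26.9 and 24.4 TPM in 2D and at 41.0 and 38.4 TPM in 3D (0.57, SE 0.07, adjusted p = 0.0177).

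**Figure D5:**
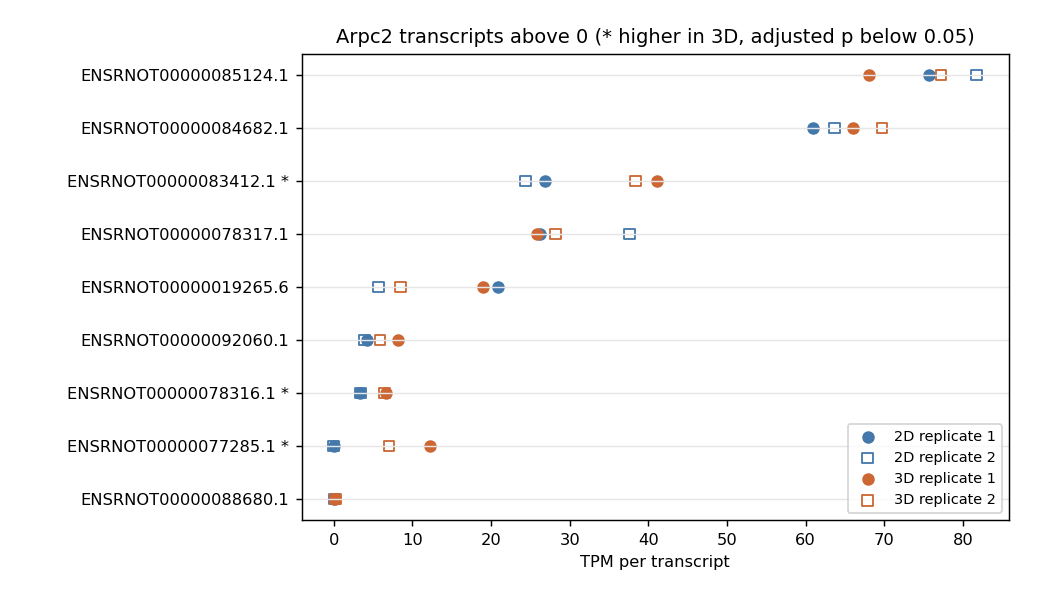
TPM of each Arpc2 transcript that was above 0 in any culture, with 2D cultures in blue and 3D cultures in orange, filled circles for replicate 1 and open squares for replicate 2. An asterisk marks the 3 transcripts called higher in 3D, in each of which both 3D cultures lie to the right of both 2D cultures. Of these, ENSRNOT00000077285.1, at 0 in both 2D cultures, reached the limit for testing through 3D alone. The 2 most abundant transcripts overlap or lie close between groups.

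For Rac1, the minor transcript ENSRNOT00000092628.1 was at 1.54 and 1.28 TPM in 2D and at 3.81 and 4.74 TPM in 3D (log2 fold change 1.10, SE 0.15, adjusted p = 0.0197 by limma). Its share of the gene was 0.404% in 2D and 1.27% in 3D, so that the level of Rac1 was set by other transcripts. For Arpc5, ENSRNOT00000064068.3 was at 85.1 and 84.6 TPM in 2D and at 72.6 and 72.4 TPM in 3D and was called lower (-0.27, SE 0.05, adjusted p = 0.0328). Its other expressed transcript, ENSRNOT00000092562.1, was at 66.0 and 15.8 TPM in 2D and at 69.7 and 49.1 TPM in 3D, and the wide spread of the gene's total came from it. These transcript calls were not kept without 2D replicate 2 or without either 3D replicate, in fits with 1 culture in an arm.

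A list of 126 other genes of actin and focal adhesion biology was set beside the 42, of which 119 were listed and 96 tested. Of these, 42 were called, or 43.8% beside the 38.0% of all genes, 20 higher and 22 lower in 3D, and the median log2 fold change was -0.04. The 5 largest rises and falls are named among called genes with a mean of at least 5 TPM. Under that limit, Actn2 (log2 fold change 0.90), Arhgef2 (0.73), Synpo (0.69) and Trip6 (0.51) were also called higher. Synpo was at 0.664 and 0.683 TPM in 2D and at 1.78 and 1.70 TPM in 3D, through which alone it reached the limit for testing. The rises named by size were those of Ssh1, a slingshot phosphatase that activates cofilin (5.91 ± 1.196 TPM in 2D and 9.68 ± 0.501 TPM in 3D, SD, n = 2 each, log2 fold change 0.60, adjusted p = 0.0158 by limma), Lcp1, an actin-bundling plastin (21.7 ± 1.68 and 32.9 ± 3.45 TPM, 0.54, adjusted p = 0.0109), Tns3, a tensin that binds integrins (38.5 ± 1.87 and 57.3 ± 0.310 TPM, 0.52, adjusted p = 0.00445), Pak2, a kinase acting below Rac and Cdc42 (8.61 ± 2.07 and 12.7 ± 0.0291 TPM, 0.49, adjusted p = 0.0362), and Coro1c, a coronin (85.8 ± 0.878 and 119.8 ± 7.37 TPM, 0.43, adjusted p = 0.00934).

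The falls were those of Pls3, another plastin (39.3 ± 1.86 TPM in 2D and 27.2 ± 1.87 TPM in 3D, SD, n = 2 each, log2 fold change -0.56, adjusted p = 0.00524 by limma), Coro1a, another coronin (21.2 ± 2.12 and 15.0 ± 0.524 TPM, -0.52, adjusted p = 0.00709), Ect2, an exchange factor that acts at cell division (42.5 ± 2.57 and 30.5 ± 1.61 TPM, -0.51, adjusted p = 0.00551), Csrp2, a LIM domain protein (109 ± 14.6 and 81.4 ± 1.76 TPM, -0.46, adjusted p = 0.0296), and Anln, the anillin of the cleavage furrow (19.5 ± 3.50 and 14.5 ± 0.580 TPM, -0.44, adjusted p = 0.0281). Without 3D replicate 1, limma called 0 genes of this list (24 at an unadjusted p below 0.05), without 3D replicate 2 it called 3, and without 2D replicate 2 it called 17.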

How the data were processed

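Polyadenylated RNA of 4 INS-1 cultures was sequenced as 75-bp single-end reads of stranded libraries. Salmon v1.2 was run by the authors against rn4 plus human insulin, after FastQC v0.11.8, and they deposited TPM per transcript, a length-normalized abundance that was entered as another unit because the deposited values use decimal commas. The DESeq2 test of the study needs counts, which TPM do not hold, and was not repeated. TPM were summed per symbol and genes whose mean reached 1 TPM were tested. Scaling factors were trimmed means of M values without weights, leaving out 30% of M and 5% of A on either side, and log2(scaled TPM + 1) was fitted with limma 3.58.1 (trended empirical Bayes) in R 4.3.3, with Benjamini-Hochberg adjustment over 11960 genes. Transcripts were fitted alike over 15020. The fit was also run on simulated data in which noise depended on abundance alone. That run does not show its error rate on these data.

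The 42 genes, the other lists and the tests were chosen with earlier results of these data known. Values in every sample are given for called genes with a log2 fold change of at least 0.3 in size, the 2 most abundant genes and their family members, and for some further called genes and tropomyosins; of the other actin list, the 5 largest rises and falls among called genes at or above 5 TPM on average are named. The transcripts, Myh14, Actn2, Arhgef2, Synpo, Trip6 and the other ARP2/3 subunits named were chosen after their values were seen. Family shares of the actins and transgelins, where 1 gene held nearly all TPM, and of 1 further group are not reported here. Depth cannot be read from TPM, and each group held only 2 cultures. The limma p-values start from the spread between these cultures. Empirical Bayes then drew each variance toward an intensity trend fitted over all genes, or all transcripts, tested. Promoter sequences are from RefSeq (GRCr8), matched by symbol, and those of Actb, Actn4, Myl9, Ptk2, Rac1 and Tagln were not used here.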

Additional observations from a re-analysis of the deposited data

How the results depend on the processing

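The labels do not say whether cultures sharing a replicate number were paired. Such cultures deviated from their groups with a correlation of -0.006009 over genes. Genes are not independent, so this value cannot decide whether they were paired. With the replicate number as a block, 2 genes of the set were called higher and 9 lower (Cfl1 no longer passed, adjusted p = 0.0761), 2450 and 2364 of all genes, 21 and 20 of the other actin list, and 7 and 3 transcripts of the set. At an adjusted p below 0.01, limma called 1 gene of the set higher and 1 lower, 3 and 3 of the other actin list, and 724 and 694 of all genes. Without the filter on low values 8 genes of the other actin list were called higher, and without the trend 12. The summed share of the set differed by -0.04148 percentage points without Actb and Actg1, and between -0.03607 and -0.02915 with a culture left out. With 1 mismatch allowed, 7 starts held a CArG box.

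With each culture left out in turn, calls of higher and lower genes ranged from 33 to 2277 and from 4 to 2179 over all genes, from 0 to 2 and from 0 to 13 in the set, from 0 to 22 and from 0 to 20 in the other actin list, and from 0 to 8 and from 0 to 6 among transcripts. The lowest counts of genes, over all genes and in both lists, were found without 3D replicate 1. These fits have 1 residual degree of freedom. Family shares did not overlap between groups for 14 of 25 genes, and for 16 to 20 under the alternatives, but shares mirror each other in pairs of genes, and with 1 culture in an arm such counts rise by construction. With Myh14 counted, the difference in the share of Myh9 was -12.89 instead of -16.01 percentage points.

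Of the 12 called genes, 12 kept their direction in all 11 alternatives that gave new values and 0 passed in every one; Msn passed in 10, Myh9 in 8, Myl6 in 6 and Cfl1 in 5. Of the 26 genes not called, 8 changed sign somewhere. The log2 fold change of Myh10 was 0.0111 without scaling, those of Rdx and Cdc42 were -0.035 and -0.0094 without the filter, and without single cultures these changes ran from -0.1286 over -0.0201 to 0.1302 for Rdx, from -0.0337 to 0.0887 for Cdc42, from -0.1219 to 0.0136 for Flna, from -0.0888 to 0.137 for Tln2, from -0.2059 over -0.0736 to 0.3064 for Arpc5, from -0.1353 to 0.0069 for Rhob and from -0.0177 to 0.1201 for Rock2. The cause was not tested.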

Other observations

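Tpm1 transcripts were divided unevenly among samples. ENSRNOT00000040808.6 and ENSRNOT00000057641.5 were within 1% of each other in 3 samples, at 7.40 and 7.39 TPM in 2D replicate 1, 6.53 and 6.53 TPM in 3D replicate 1 and 6.81 and 6.81 TPM in 3D replicate 2. In 2D replicate 2 they stood at 15.8 and 0 TPM. Neither was called by limma, and the level of the gene, at 22.9 TPM in that culture, was close to the 21.6 TPM of the other monolayer.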
